A study of Drosophila melanogaster with 12 samples.

Results

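The genes described here encode subunits of the 5 complexes of oxidative phosphorylation in Drosophila melanogaster, together with genes that share their names. They were taken by symbol: every probe set (the group of short probes that measures 1 transcript on the array) annotated to a single gene whose symbol starts with ND-, Sdh, UQCR-, COX or ATPsyn, or is RFeSP or Cyt-c1. This gave 69 of the 10843 genes measured, on 71 of 14010 probe sets, with the brightest probe set on average kept for each gene. Complex I was represented by 31 genes, complex II by 7, complex III by 6, complex IV by 11 and complex V by 14. Of the 69, 51 are named as subunits, 17 carry the names of subunits with a final L and are treated as paralogs, and 1, Sdhaf3, is named as an assembly factor. Only nuclear genes were covered, since 0 probe sets carried the name of a mitochondrially encoded subunit. 4 further probe sets with matching symbols were annotated to more than 1 gene and were left out.

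Complexes I to IV form the electron transport chain of the inner mitochondrial membrane. Complexes I and II take electrons from NADH and from succinate, complex III passes them to cytochrome c, and complex IV passes them to oxygen, while complexes I, III and IV move protons across the membrane. Complex V, the ATP synthase, lets protons flow back through its membrane part (FO) and makes ATP in its catalytic head (F1). In the fly ovary the border cells, a small cluster that leaves the follicle epithelium and moves between the nurse cells, need the transcription factor slbo (slow border cells, a C/EBP protein) for that migration.

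Total RNA was taken from ovaries of females 2 to 7 days old, and there were 4 groups of 3 biological repeats on 12 one-colour arrays. In the wild-type groups (WT here) the flies carried slbo-Gal4 and UAS-mCD8-GFP/+, and in the slbo mutant groups slbo-Gal4, slboe7b/UAS-mCD8-GFP, slboLy6, so that the driver and the CD8-GFP tag were present in all 4 groups. Cells marked by the tag were captured on magnetic beads with an antibody to mouse CD8 and are called migratory here, as in the labels, whether or not they moved. The cells left behind are called nonmigratory. The captured cells are those in which slbo-Gal4 is active, whatever their type, and the remainder is a mixture. Of the mutant nonmigratory arrays 1 had no age or tissue label, and 1 took its genotype from its title because the genotype label was missing. In such bulk samples fewer cells of a type and less RNA per cell cannot be told apart.

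The arrays were alike in scale, with trimmed means between 150.026 and 150.03 and correlations within groups between 0.924 and 0.957. In captured WT cells slbo itself gave signals of 275, 197 and 167, in captured mutant cells 44.3, 51.4 and 35.1, in the WT remainder 115, 113 and 149 and in the mutant remainder 87.3, 19.0 and 82.9. It was 4.27-fold lower in captured mutant than in captured WT cells (log2 -2.09, SE 0.404, adjusted p = 0.013). The captured mutant signals lay just above the 95th percentile of controls for absent transcripts on those arrays (40.5, 50.9 and 33.4). The size of this fold change is thus set in part by background. By limma, the linear model described below, slbo was not called between the WT fractions (log2 0.71, SE 0.404, adjusted p = 0.342). Nor was it called between genotypes in nonmigratory cells (log2 -1.11, adjusted p = 0.351). The summed signal of 7 measured border and centripetal cell markers, slbo among them, was 1042 to 1159 in WT migratory and 581 to 781 in WT nonmigratory cells. In the mutant it was 562 to 763 in migratory and 615 to 757 in nonmigratory cells, which overlapped. Of the 5 tested, 1 was called higher in WT migratory than in WT nonmigratory cells and 0 lower. Between the mutant fractions 0 of the 5 were called (median log2 -0.14). All 17 measured follicle and eggshell markers were above the level of absent controls in every group, with sums of 189315 to 229658 and 197279 to 211542 in the WT fractions and 158120 to 208363 and 141211 to 159626 in the mutant fractions (migratory, then nonmigratory). Of these, 5 in the WT, 7 in the mutant and 8 in the average were called higher in migratory cells and 0 lower. The median log2 differences of all 17 were 0.27, 0.63 and 0.47. Among all 8978 features tested 4.27%, 3.72% and 8.04% were called higher. Between nonmigratory cells 5 eggshell markers were called lower in the mutant, beside 0.356% of all features. Of 14 muscle markers 13 were above the level of absent controls in each group. The summed signal of all 14 was 9483 to 11448 in WT migratory and 5566 to 7897 in WT nonmigratory cells. In the mutant it was 10794 to 12003 against 6494 to 8772. For 20 gut markers the sum was 29946 to 41572 in mutant migratory and 15083 to 20559 in mutant nonmigratory cells. In the WT arrays it was 4200 to 10516. In migratory cells 3 gut markers were called higher in the WT, 6 in the mutant and 6 in the average. For 13 tested muscle markers these counts were 1, 2 and 6, and 0 of either list were called lower. Between genotypes 12 gut markers were higher in mutant migratory and 6 in mutant nonmigratory cells. Sums of 15 germline markers were 1695 to 2356 and 1415 to 1699 in the WT fractions and 2369 to 2632 and 2056 to 2292 in the mutant fractions, and those of 5 hemocyte markers ranged from 398 to 1293 over the arrays. The ratio of the 5' to the 3' GAPDH control probe sets, a measure of RNA integrity, was 0.0783 to 0.0947 on the WT migratory and 0.158 to 0.200 on the WT nonmigratory arrays, without overlap, and 0.0932 to 0.150 against 0.134 to 0.184 in the mutant. The same ratio for actin was 0.230 to 0.384 on the WT migratory and 0.230 to 0.333 on the WT nonmigratory arrays, which overlapped. In the mutant it was 0.165 to 0.305 against 0.308 to 0.394, without overlap. The GAPDH ratio and the fraction cannot be told apart in the WT, nor the actin ratio and the fraction in the mutant. The part of the eggshell, muscle and gut markers in the differences below was not tested.

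Of the 51 subunit genes 49 had mean signals in all 4 groups above the 95th percentile of the 23 controls for absent transcripts. ND-B8, an accessory subunit of complex I, was mixed, with signals of 5.8 to 62.8 over the arrays, and COX7C, a small subunit of complex IV, was below that level in every group, with signals of 3.2 to 11.0. Among the 17 paralogs 8 were above the level in all groups, 7 were below it in all groups (SdhAL, SdhCL, UQCR-14L, COX4L, COX5BL, COX6AL2 and COX7AL) and 2 were mixed (SdhBL and ATPsynCF6L). Signals of different probe sets are not on a common scale, so that these values show detection and not an order of abundance. A filter required a signal above the 40th percentile of the array in at least 3 arrays. It kept 60 of the 69 genes: 50 of the 51 subunits, 9 of the 17 paralogs and Sdhaf3. COX7C, SdhBL and the 7 undetected paralogs were not tested, and the dimmest gene kept was ATPsynCF6L with a mean signal of 32.6, next to SdhBL with 33.7, which did not pass.

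**Figure D1:**
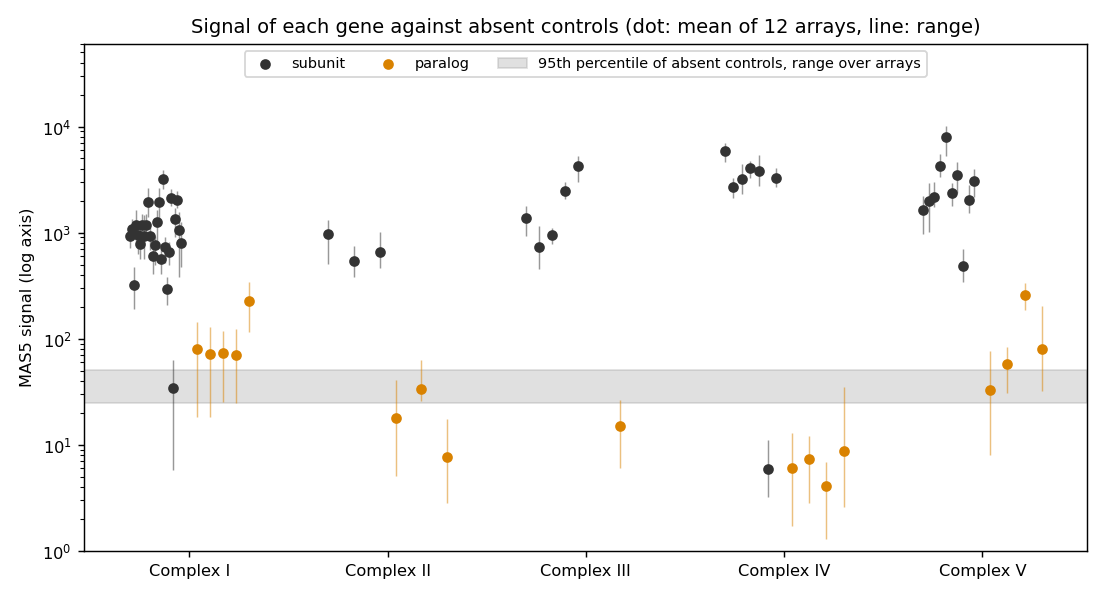
MAS5 signal (log axis) of each of 51 subunit genes and 17 paralogs, by complex; dots are means of 12 arrays, lines run from the lowest to the highest array, and the grey band is the range over arrays of the 95th percentile of absent controls. All but 2 subunits, ND-B8 and COX7C, lie above the band, and 7 paralogs lie below it on average.

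Which respiratory chain genes differed between the cells captured by the slbo-Gal4 tag and the remainder was asked in each genotype and over both. In each of the 5 complexes some subunit genes were called lower in the captured, migratory cells. In the WT 20 of the 60 tested genes (33.3%) were lower, 0 were higher and 40 were not called, where 4.92% of all 8978 features tested were called lower and 4.27% higher. In the slbo mutant 26 (43.3%) were lower, 0 higher and 34 not called, against 5.2% of all features lower and 3.72% higher. Averaged over both genotypes 40 (66.7%) were lower, 0 higher and 20 not called, against 9.89% lower and 8.04% higher, and all 40 are named as subunits, out of 50 tested. The median log2 difference of the 60 genes was -0.39 in the WT, -0.42 in the mutant and -0.39 in the average, beside 0.01, 0.03 and 0.03 over all features. A gene was called where the p-value from limma, a linear model fitted to all features with 3 arrays per group and adjusted by Benjamini-Hochberg over all 8978, was below 0.05. Differences are on the scale of log2(signal + 7.5), and a range after a log2 value is its 95% confidence interval.

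Features with high signals were called more often than features as a whole. Among the 618 features with a mean signal above that of the median tested gene of the set, 17.8% were called lower in WT migratory cells, 19.4% in mutant migratory cells and 29.6% in the average, with median log2 differences of -0.13, -0.10 and -0.12. Values of the 3 migratory and 3 nonmigratory arrays did not overlap, with the migratory arrays lower, for 31 of the 60 genes in the WT and 43 in the mutant, where 12.8% and 14.8% of all features did so. The log2 difference was negative for 53 of the 60 genes in the WT, for 52 in the mutant and for 49 in both. 14 genes were called lower in both genotypes, which is 70.0% of the WT list and 53.8% of the mutant list, and 32 were called lower in at least 1. The matching overlap over all features is not given here. Both comparisons used the same estimate of the spread of each gene, so these lists are not separate results. Another 9 were called only when both genotypes were averaged.

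The counts within a genotype depended on the fit more than the average did, except with the GAPDH ratio as a covariate. In the WT they went down to 6 with arrays centred on their medians, to 2 without an intensity trend in the variance and to 7 when only the WT arrays were fitted, while leaving out WT migratory replicate 1 or 3 gave 9 or 10 and leaving out WT nonmigratory replicate 1 or 2 gave 11 or 6. In the mutant the count was 4 without the variance trend, and it was 16 or 9 when migratory replicate 1 or 2 was left out and 6 or 11 when nonmigratory replicate 1 or 2 was. The average gave 35 to 43 called genes whichever array was left out. Of its 40 calls 32 held with median centring and 27 without the variance trend. With median centring 18 of the 26 mutant calls held. With the GAPDH ratio as a covariate the counts were 0, 1 and 0 and the median log2 differences -0.24, -0.39 and -0.33, beside -0.04, -0.01 and -0.02 over all features. In that fit the calls over all 8978 features, in either direction, were 4 in the WT, 168 in the mutant and 36 in the average, against 825, 801 and 1610 without the covariate. The median SE over all features rose from 0.30 to 0.64 in the WT, from 0.30 to 0.40 in the mutant and from 0.21 to 0.47 in the average. With precision lost in this way, the fit cannot show what part RNA integrity had in the differences.

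**Figure D2:**
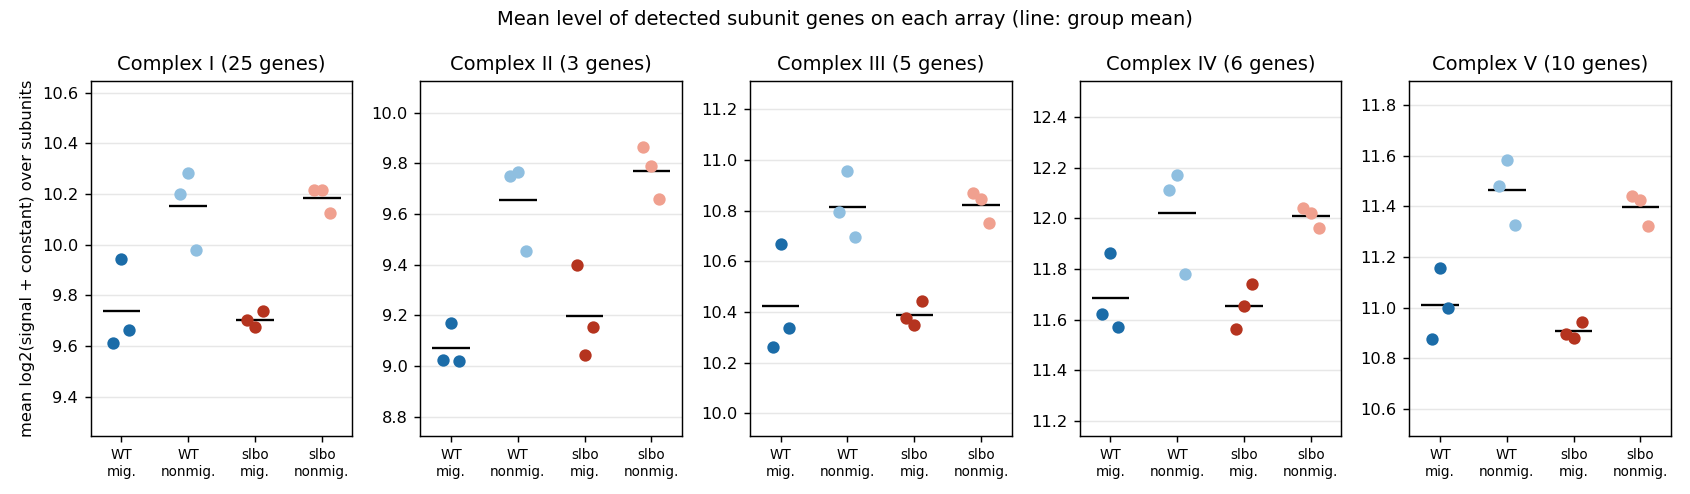
Mean of log2(signal + 7.5) over the detected subunit genes of each complex on each of the 12 arrays (points) with group means (lines); the 5 vertical axes span the same range but start at different levels. Migratory arrays lie below nonmigratory arrays in every complex of the mutant and in complexes I, II, III and V of the WT, while in complex IV the WT fractions overlap.

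As a description over whole complexes, the mean log2 level of detected subunits on each array was compared between fractions. For the 25 detected subunits of complex I it was 9.74 ± 0.18 (SD, n = 3) in WT migratory and 10.15 ± 0.16 in WT nonmigratory cells, and 9.71 ± 0.03 and 10.19 ± 0.05 in the mutant. The migratory minus nonmigratory differences were -0.41 and -0.48 for complex I (WT and mutant), -0.59 and -0.57 for complex II, -0.39 and -0.43 for complex III, -0.34 and -0.35 for complex IV and -0.45 and -0.49 for complex V. In complex IV the WT arrays overlapped, at 11.57 to 11.87 against 11.78 to 12.17. The genotypes differed by -0.10 to 0.13 within a fraction in any complex.

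In complex I, which oxidises NADH, 11 of 31 tested genes were lower in WT migratory cells. In mutant migratory cells 15 of 31 were lower, and in the average 19. These shares are 35.5%, 48.4% and 61.3%, beside 17.8%, 19.4% and 29.6% of the features with high signals. The catalytic core was represented by 3 genes, ND-75, ND-51 and ND-20, of which 2 were called in the WT and 3 in the mutant. ND-51, the flavoprotein that binds NADH, had signals of 558.5, 901.5 and 768 on the WT migratory and 1187, 1464 and 1049 on the WT nonmigratory arrays, and 679, 644 and 699 against 1031, 1229 and 1043 in the mutant. The fractions did not overlap in either genotype. It was 1.67-fold lower in WT migratory cells (log2 -0.74, -1.09 to -0.39, adjusted p = 0.0113) and 1.62-fold lower in the mutant (log2 -0.70, adjusted p = 0.0163).

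ND-75, the largest iron-sulfur subunit of the core, showed 864, 1109 and 1021 against 1415.5, 1496.5 and 1377 in the WT fractions and 908.5, 934 and 1059.7 against 1328, 1371.5 and 1367 in the mutant fractions, again with no overlap. The log2 differences were -0.52 (adjusted p = 0.00945) and -0.49 (adjusted p = 0.0152). ND-20, an iron-sulfur subunit next to the quinone site, had WT signals of 911, 888 and 858 in migratory and 1110.5, 1117 and 923 in nonmigratory cells and mutant signals of 918, 659 and 629.9 and 1213, 1067 and 1078. The WT arrays lay close together without overlapping and the gene was not called there (log2 -0.24, -0.54 to 0.06), whereas in the mutant it was lower (log2 -0.62, adjusted p = 0.0136). The interaction for ND-20 was not called (log2 -0.38, -0.81 to 0.05, adjusted p = 0.767).

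Of the accessory subunits near the NADH end, 0 of 4 were called in the WT and 2 of 4 in the mutant. ND-18, known in mammals to be needed for stable assembly of that module, gave log2 -0.56 in the WT (adjusted p = 0.0980) and was lower in the mutant (log2 -0.73, adjusted p = 0.0317). ND-13A had 1006, 962 and 919 in WT migratory and 827, 1041.5 and 989.5 in WT nonmigratory cells, which overlapped, and 716, 772 and 751 and 1060.2, 1008 and 1094 in the mutant, which did not. Its log2 difference was 0.02 in the WT and -0.49 in the mutant (adjusted p = 0.0132). ND-B17.2 was not called (log2 -0.15 and -0.26), nor was the barely detected ND-B8 (log2 0.48 and 0.86, with intervals of -0.67 to 1.63 and -0.30 to 2.01).

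Of 3 accessory subunits of the quinone end 1 was called in each genotype. This was ND-B14.5A in the WT (log2 -0.52, adjusted p = 0.0325) and ND-39 in the mutant (log2 -0.57, adjusted p = 0.0169). ND-B14 was not called in either (log2 -0.41 and -0.43) but was in the average (log2 -0.42, adjusted p = 0.0214).

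Among the 16 remaining subunits of complex I, mostly of the membrane arm, 8 were lower in the WT and 9 in the mutant. The acyl carrier protein ND-ACP, which also serves mitochondrial fatty acid synthesis, had 1579, 1687 and 1571 in WT migratory and 2638, 2360.3 and 2066 in WT nonmigratory cells. Mutant signals of ND-ACP were 1396, 1650.4 and 1632 and 2432, 2126 and 2220.3. Fractions were separate in both genotypes, and ND-ACP was 1.45-fold lower in the WT (adjusted p = 0.00754) and 1.45-fold lower in the mutant (adjusted p = 0.00856). ND-SGDH, a membrane arm subunit, had 521, 667.5 and 474 against 911, 1069 and 803 in the WT and 804, 540.2 and 495 against 1261, 1054 and 1023 in the mutant. Mutant migratory replicate 1 was the highest of the migratory arrays and still below every nonmigratory array of its genotype. The log2 differences of ND-SGDH were -0.74 (adjusted p = 0.0196) and -0.88 (adjusted p = 0.00821).

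The largest difference between fractions of any tested gene of the set was that of ND-PDSW in the WT. Its signals were 381.5, 1098 and 607 on the migratory and 1216, 1492 and 1228 on the nonmigratory arrays, so that the WT migratory arrays themselves differed widely. It was 2.05-fold lower (log2 -1.03, -1.59 to -0.47, adjusted p = 0.0218). In the mutant ND-PDSW gave log2 -0.75 and was not called (adjusted p = 0.0916). ND-19 (log2 -0.71 and -0.55), ND-B14.5B (log2 -0.62 and -0.47), ND-42 (log2 -0.45 and -0.50) and ND-ASHI (log2 -0.44 and -0.48) were lower in both genotypes. ND-B16.6 was lower in the WT (log2 -0.39) and gave -0.33 in the mutant (adjusted p = 0.0523). ND-15, ND-B12, ND-MWFE and ND-MNLL were called nowhere, with log2 values of -0.34 to -0.14 in the WT and -0.33 to -0.23 in the mutant.

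**Figure D3:**
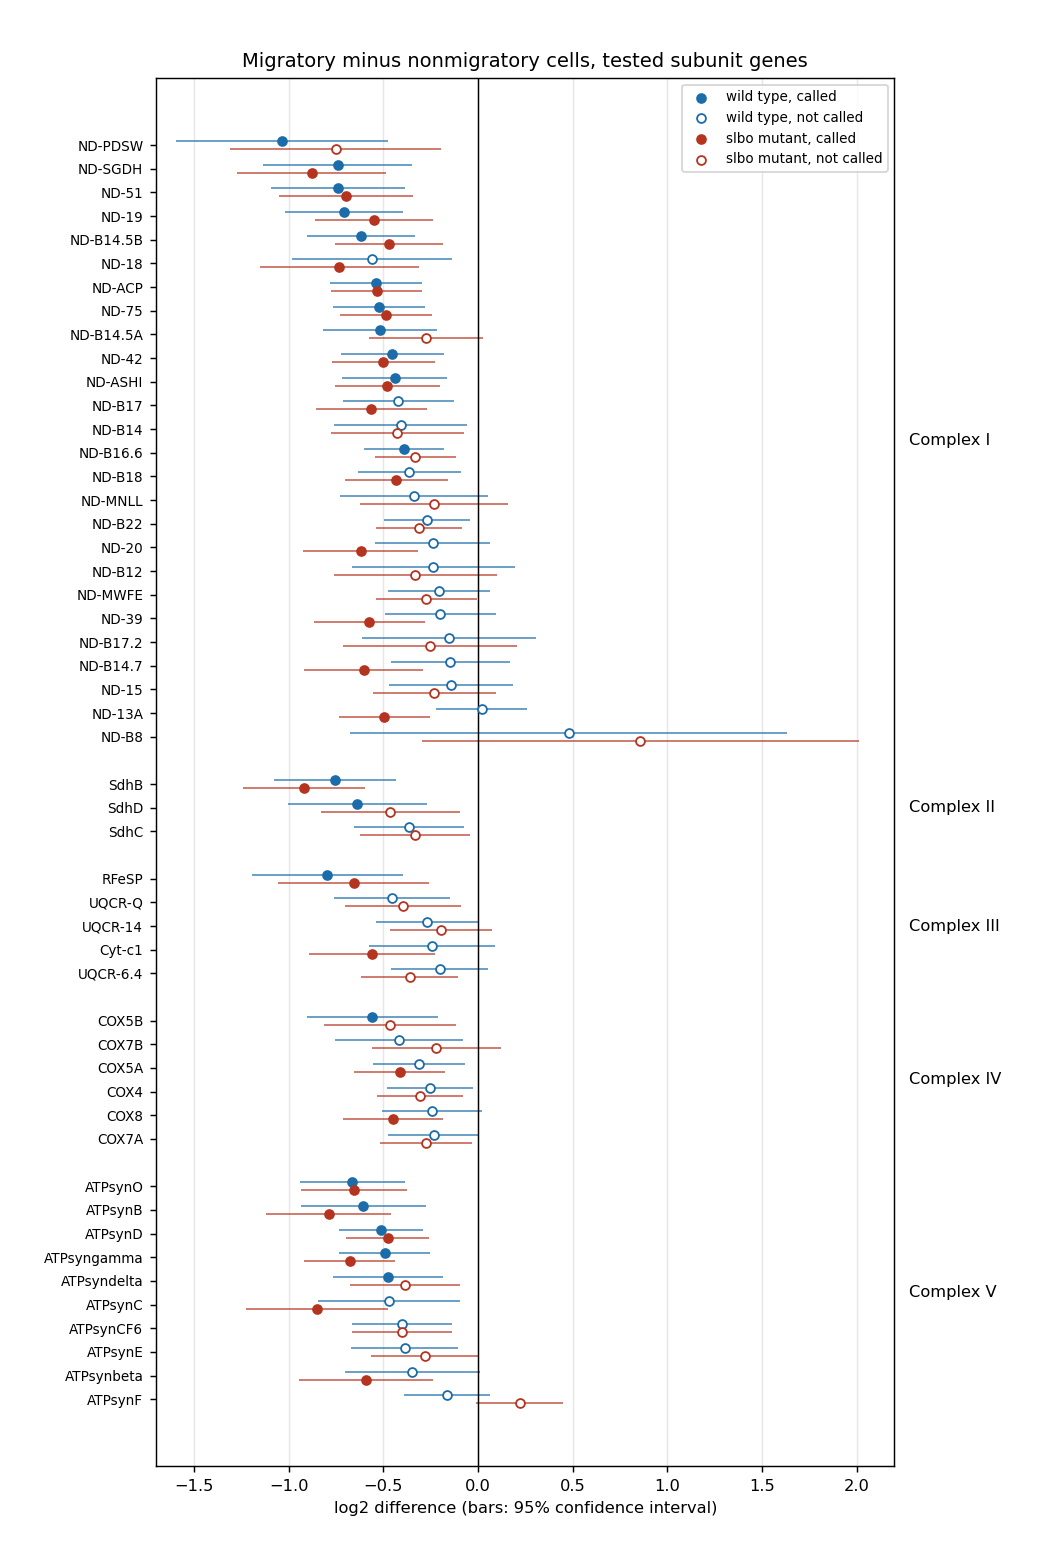
Migratory minus nonmigratory log2 differences of the 50 tested subunit genes, by complex, in the WT (blue) and the slbo mutant (red); bars are 95% confidence intervals and filled points were called at an adjusted p below 0.05. All but 2 points lie left of 0 in the WT (ND-13A and ND-B8) and all but 2 in the mutant (ND-B8 and ATPsynF).

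Complex II, succinate dehydrogenase, is also an enzyme of the tricarboxylic acid cycle. Of its 4 tested genes 2 were lower in the WT, 1 in the mutant and 3 in the average. Among features with high signals 17.8%, 19.4% and 29.6% were called lower, so that 1 of 4 in the mutant is near that share. SdhB, the iron-sulfur subunit, had 662, 765 and 717.5 on the WT migratory arrays and 1246, 1245 and 1139.8 on the WT nonmigratory arrays. On the mutant arrays it had 817, 504 and 704 and 1306, 1321 and 1157. The fractions were well apart in both genotypes, and SdhB was 1.69-fold lower in the WT (log2 -0.75, -1.08 to -0.43, adjusted p = 0.00543) and 1.89-fold lower in the mutant (log2 -0.92, -1.24 to -0.60, adjusted p = 0.00190). It was called in the mutant under every setting run and in the WT under all of them except with the GAPDH covariate.

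The membrane anchors SdhC and SdhD hold the quinone site of complex II. SdhD had 461, 555 and 491 against 811, 1010.1 and 586 in the WT and 627, 563 and 481 against 803, 764 and 731 in the mutant, and SdhC 444, 431 and 381 against 617, 509.9 and 501 and 581, 496 and 528 against 751, 669.7 and 609. No fractions overlapped, but only SdhD in the WT was called (log2 -0.64, adjusted p = 0.0305). SdhD in the mutant gave log2 -0.46 (adjusted p = 0.117) and SdhC gave -0.36 and -0.33. Both anchors were lower in the average (SdhD log2 -0.55, adjusted p = 0.00526, and SdhC log2 -0.35, adjusted p = 0.0195). The assembly factor gene Sdhaf3 was not called (log2 -0.28 and -0.36, average -0.32 with an interval of -0.66 to 0.01).

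In complex III, the cytochrome bc1 complex, 1 of 5 tested genes was lower in the WT, 2 in the mutant and 4 in the average. The called genes within a genotype were the electron carriers. RFeSP, the Rieske iron-sulfur protein that takes electrons from quinol, had 456, 661 and 554 against 978, 1164 and 782 in the WT and 458, 517.5 and 618 against 976, 885 and 672.5 in the mutant, with no overlap in either. It was 1.74-fold lower in the WT (log2 -0.80, adjusted p = 0.0143) and 1.58-fold lower in the mutant (log2 -0.66, adjusted p = 0.0406).

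Cyt-c1, which hands electrons to cytochrome c, had 1039, 1520.3 and 1254.5 in WT migratory and 1289.6, 1576 and 1619.7 in WT nonmigratory cells, which overlapped. In mutant cells it had 1283, 1179.8 and 928 and 1505, 1686 and 1782, which did not. The gene was called in the mutant (log2 -0.56, adjusted p = 0.0360) and not in the WT (log2 -0.24, -0.57 to 0.09), and its interaction was not called (adjusted p = 0.837). The small subunits UQCR-Q (log2 -0.42, adjusted p = 0.00847) and UQCR-6.4 (log2 -0.28, adjusted p = 0.0324) were lower in the average only, and UQCR-14 was not called there (log2 -0.23, adjusted p = 0.0868).

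Complex IV, cytochrome c oxidase, has a catalytic core encoded by mitochondrial DNA and a shell of small nuclear-encoded subunits, of which 6 were tested. In the WT 1 was lower, in the mutant 2 and in the average 5. The WT share of 16.7% was no larger than the 17.8% of features with high signals that were called lower. COX5B had 2321.5, 3322 and 2349 on WT migratory and 4279, 4470.1 and 3021.5 on WT nonmigratory arrays. Here WT migratory replicate 2 was above WT nonmigratory replicate 3, so that the fractions overlapped although the gene was called (log2 -0.56, -0.90 to -0.21, adjusted p = 0.0441). Mutant signals of COX5B were 2446, 2497 and 3093 and 3577, 3827.5 and 3632, without overlap and not called (log2 -0.46, adjusted p = 0.0924).

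COX5A and COX8 were called in the mutant. COX5A had mutant signals of 2414, 2130.1 and 2581 and 3234, 3119 and 3117 (log2 -0.41, adjusted p = 0.0341), and COX8 had 2762, 2798 and 2667 and 3913, 3749 and 3581 (log2 -0.45, adjusted p = 0.0350), all without overlap. In the WT they gave log2 -0.31 and -0.24. COX4 and COX7A were lower in the average only (log2 -0.28, adjusted p = 0.0172, and log2 -0.25, adjusted p = 0.0394). COX7B was called in no comparison (average log2 -0.32, -0.56 to -0.08, adjusted p = 0.0646).

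**Figure D4:**
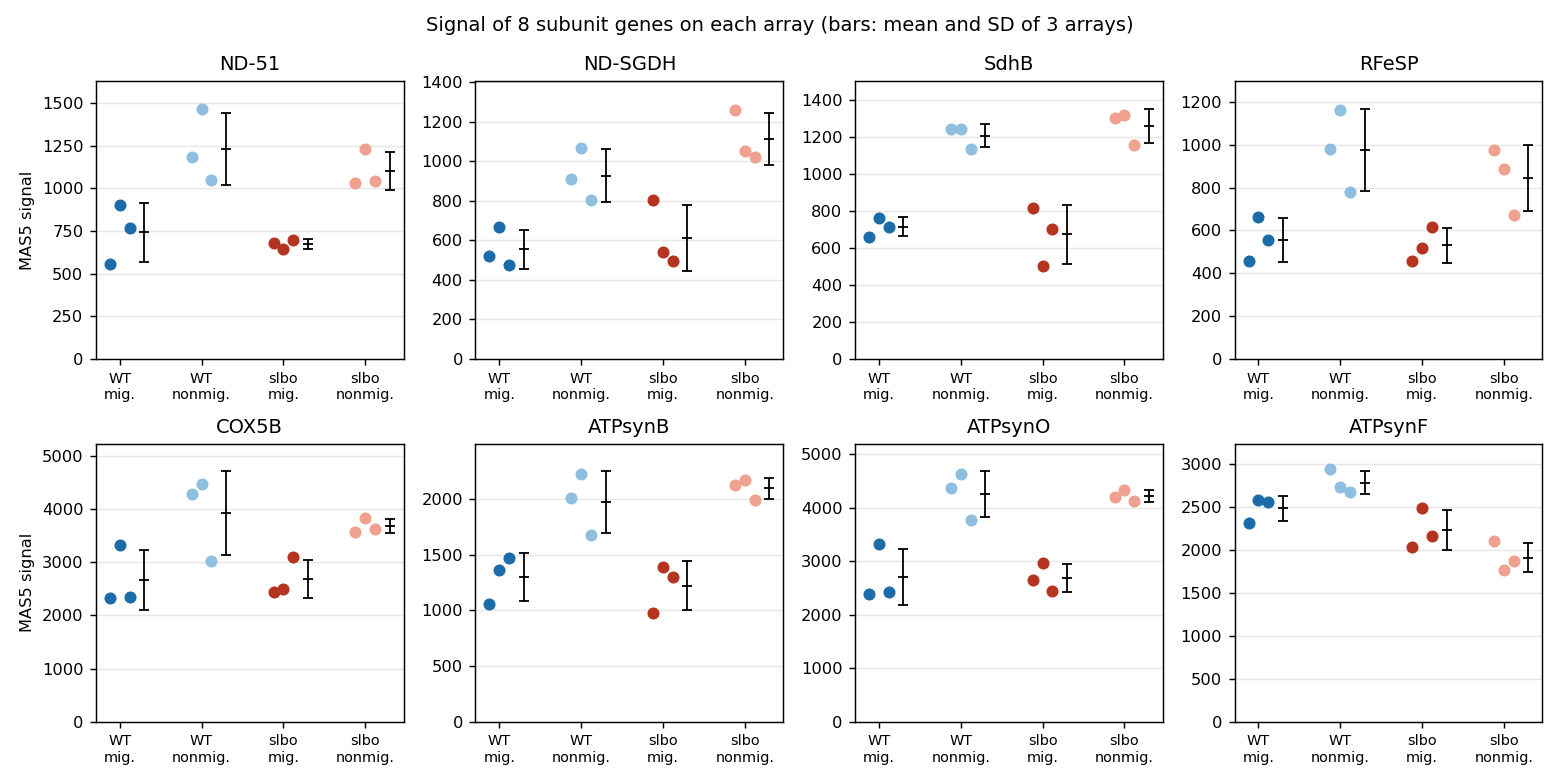
MAS5 signal (axes from 0) of 8 subunit genes on each of the 12 arrays, with the mean and SD of 3 arrays beside each group. ND-51, ND-SGDH, SdhB, RFeSP, ATPsynB and ATPsynO are lower on migratory than nonmigratory arrays in both genotypes without overlap, COX5B overlaps in the WT, and ATPsynF is lowest in mutant nonmigratory cells.

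In complex V 5 of 14 tested genes were lower in WT migratory cells, 6 in mutant migratory cells and 9 in the average. These shares are 35.7%, 42.9% and 64.3%, beside 17.8%, 19.4% and 29.6% of the features with high signals. Of the F1 head and its central stalk 2 of 3 tested genes were lower in each genotype. ATPsyngamma, the rotating shaft, had 2599, 2941 and 2302 against 3533, 4018 and 3464 in the WT and 2178, 2383 and 2236 against 3435, 4020.4 and 3447 in the mutant. With no overlap in either genotype, it was 1.41-fold lower in the WT (adjusted p = 0.0121) and 1.60-fold lower in the mutant (adjusted p = 0.00203). The catalytic subunit ATPsynbeta had 340.0, 505 and 408 and 472, 594 and 519 in the WT, which overlapped, and 440.3, 346 and 419.8 and 694, 595 and 539.8 in the mutant, where it was lower (log2 -0.59, adjusted p = 0.0379, against -0.35 in the WT). ATPsyndelta of the central stalk was lower in the WT (log2 -0.48, adjusted p = 0.0397) and gave -0.38 in the mutant (adjusted p = 0.0956).

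Of 7 tested subunits of the membrane part and the peripheral stalk, which keeps the head from turning, 3 were lower in the WT and 4 in the mutant. ATPsynO, the stalk subunit that caps the head, had 2385, 3321 and 2419 in WT migratory and 4363, 4625 and 3779 in WT nonmigratory cells. Mutant signals were 2658, 2968 and 2439 and 4212.5, 4337 and 4124.5. Fractions did not overlap, and the log2 differences were -0.66 (adjusted p = 0.00476) and -0.65 (adjusted p = 0.00602). ATPsynB (log2 -0.60 and -0.79) and ATPsynD (log2 -0.51 and -0.48) of the same stalk were lower in both genotypes, and ATPsynCF6 in the average only (log2 -0.40, adjusted p = 0.00469). ATPsynE of the membrane part was likewise called in the average only (log2 -0.33, adjusted p = 0.0221).

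ATPsynC encodes the c subunit, the proton-carrying ring of the membrane part. Its brighter probe set had 1419, 2319.7 and 1755 and 2193, 2933 and 2402 in the WT fractions, which overlapped, and 1469.6, 1009 and 1429 and 2334, 2327 and 2296 in the mutant fractions, which did not, and was called in the mutant (log2 -0.85, adjusted p = 0.00763). The other probe set of ATPsynC gave 0.21 in the WT and 0.12 in the mutant, of opposite sign to -0.47 and -0.85, so the direction for this gene depends on the probe set. For ND-MNLL, the only other gene of the set with more than 1 probe set, both gave negative values (-0.34 and -0.23, and -0.62 and -0.58 on the dimmer).

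ATPsynF encodes a small subunit of the membrane part. It had 2318, 2579 and 2559.6 in WT migratory, 2938, 2734 and 2679 in WT nonmigratory, 2035, 2488 and 2169 in mutant migratory and 2104, 1766.5 and 1867 in mutant nonmigratory cells. The lowest group was the mutant nonmigratory cells, which did not overlap with WT nonmigratory cells. WT migratory arrays lay just below WT nonmigratory arrays, and the mutant fractions overlapped. Between fractions it was not called (log2 -0.16 in the WT, 0.22 in the mutant, average 0.03 with an interval of -0.13 to 0.19), and it was the only subunit apart from ND-B8 with a positive average.

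Paralogs named after subunits were too few and too imprecise for their calls to set them apart. Of 9 tested paralogs 0 were called by limma between fractions in either genotype. Among all features 4.92% and 5.2% were called lower and 4.27% and 3.72% higher, so 0 of 9 is near those shares. An unadjusted p below 0.05 was found for 0 paralogs in the WT and 1 in the mutant, and for 22.0% and 22.7% of all features. The median log2 differences of the paralogs were 0.04 in the WT and 0.23 in the mutant, against -0.40 and -0.46 for the 50 tested subunits. The difference between these medians was not tested. Paralogs gave lower signals (median 33.7 for all 17, against 1190.8 for the 51 subunits), and features with high signals had negative medians. The median width to either side of a paralog interval was 0.77 log2 units, against 0.29 for the subunits. Intervals were widest for ATPsynCF6L, which was not called, with -0.31 to 2.30 in the mutant and the same width in the WT. The paralog with the unadjusted p below 0.05 was ND-51L1 (log2 0.89, 0.12 to 1.66, adjusted p = 0.149). ATPsynbetaL, which was above the absent level on all 12 arrays, gave 0.04 (-0.40 to 0.49) in the WT and 0.23 (-0.22 to 0.67) in the mutant, and ND-B14.5AL, also above it on all 12, gave 0.43 and -0.10. Whether probes of a paralog also bind transcripts of the related subunit was not tested.

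COX7AL, a paralog of a complex IV subunit, was below the absent level on every array, so no fold change is given. It had 22.7, 35.1 and 12.8 on the mutant migratory arrays, all higher than the 2.6 to 5.9 on the other 9 arrays. It did not pass the filter. Without the filter it was called between mutant and WT migratory cells (adjusted p = 0.0145) and between the mutant fractions (adjusted p = 0.00833), on signals within the range of the absent controls.

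Whether loss of slbo altered these genes was asked within each fraction. Between mutant and WT migratory cells 0 of 60 genes were called by limma (1.94% of all features), 3 had an unadjusted p below 0.05 (13.1% of all features), and the median log2 difference was -0.03. These 3 were ND-13A (log2 -0.36, -0.60 to -0.12, adjusted p = 0.132), ATPsynC (log2 -0.48, adjusted p = 0.226) and SdhC (log2 0.35, adjusted p = 0.261). ND-13A was 716, 772 and 751 in the mutant against 1006, 962 and 919 in the WT, without overlap. In complexes III and IV the lowest unadjusted p belonged to UQCR-14 (log2 0.14, -0.12 to 0.41) and COX8 (log2 -0.14, -0.41 to 0.12). The median width to either side of a 95% interval was 0.31 log2 units. With arrays centred on their medians the median of all features in this comparison moved from 0.01 to -0.12 and that of the 60 genes to -0.16.

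Between mutant and WT nonmigratory cells 1 of 60 genes was called, ATPsynF, which was lower in the mutant (0.356% of all features were called lower). ATPsynF was 2104, 1766.5 and 1867 in mutant and 2938, 2734 and 2679 in WT nonmigratory cells and was 1.46-fold lower (log2 -0.54, -0.77 to -0.31, adjusted p = 0.0317). This call was lost with median centring, without the variance trend, with the GAPDH covariate and without any 1 of the 6 nonmigratory arrays, while the log2 value stayed between -0.61 and -0.49. SdhC was not called (log2 0.32, 0.03 to 0.61, adjusted p = 0.479), and the paralog ND-51L2 gave 0.96 (adjusted p = 0.351). In complexes III and IV the lowest unadjusted p belonged to RFeSP (log2 -0.20) and COX7B (log2 -0.21).

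**Figure D5:**
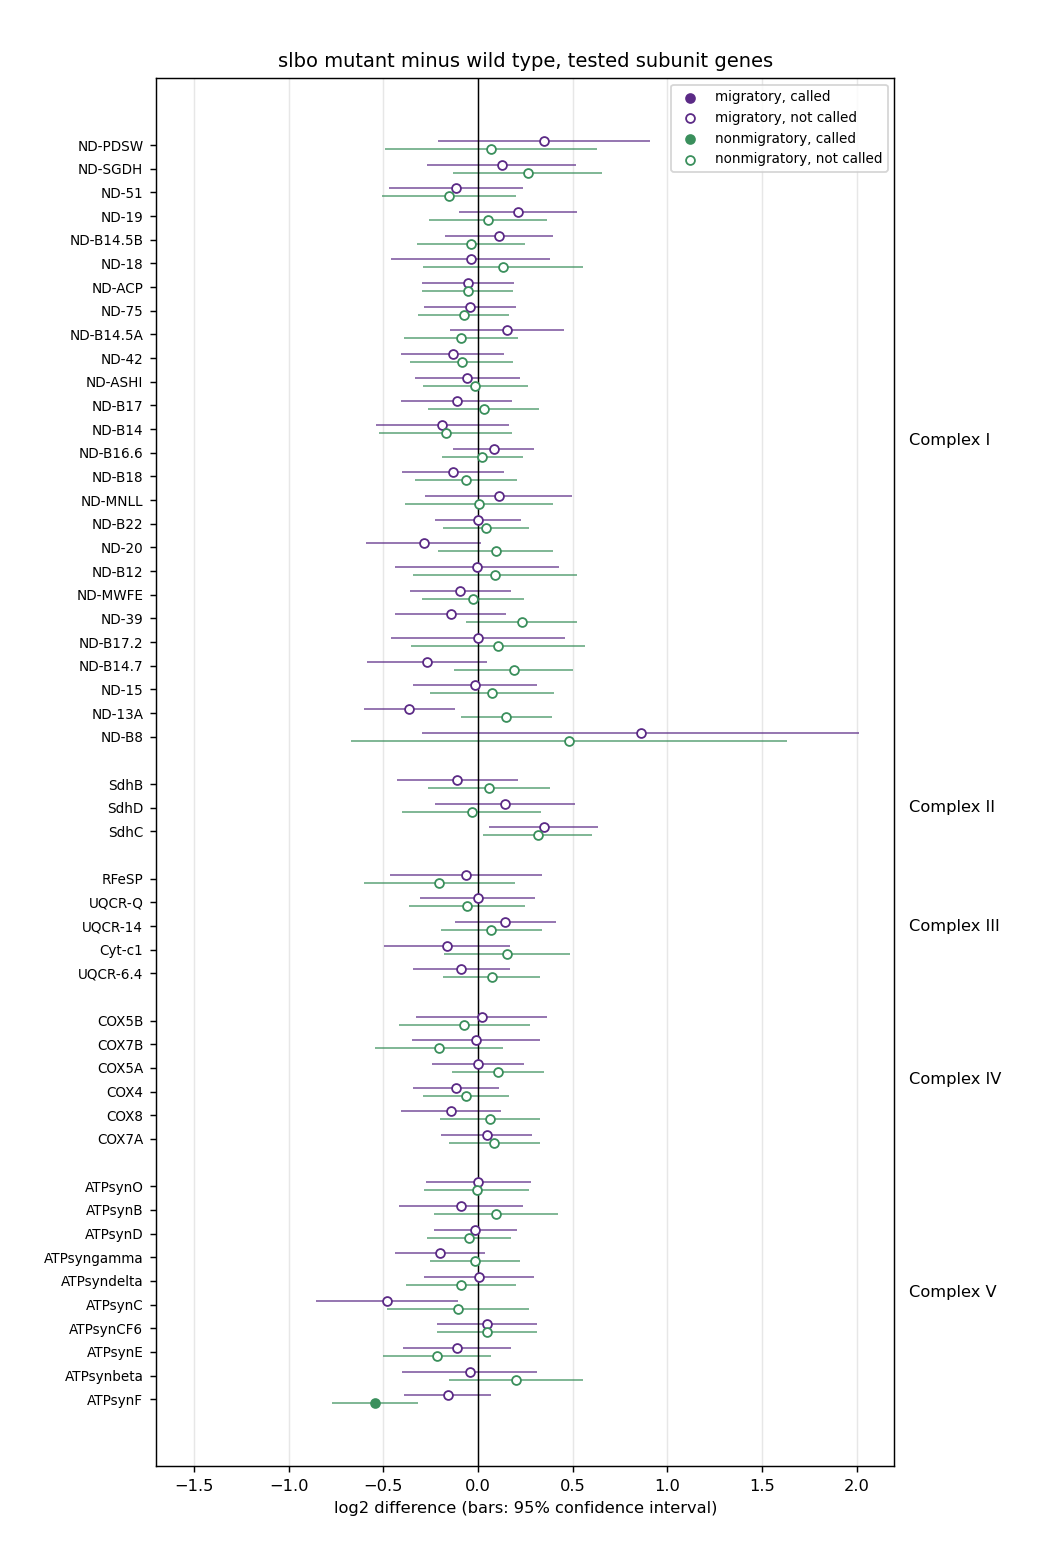
slbo mutant minus WT log2 differences of the 50 tested subunit genes, by complex, in migratory (purple) and nonmigratory cells (green); bars are 95% confidence intervals and filled points were called at an adjusted p below 0.05. All intervals include 0 except those of ND-13A, ATPsynC and SdhC in migratory and of SdhC and ATPsynF in nonmigratory cells, and the only filled point is ATPsynF in nonmigratory cells at -0.54.

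Whether the fraction difference itself depended on genotype was tested as an interaction. By limma 0 of the 60 genes were called, as were 0.0% of all 8978 features, with 3 of the 60 and 603 of all features (6.72%) at an unadjusted p below 0.05. The median interaction was -0.03 and the median width to either side of its interval 0.44 log2 units, about as large as the fraction differences themselves. Lowest were ND-13A (log2 -0.51, -0.85 to -0.17, unadjusted p = 0.00577, adjusted p = 0.640), ATPsynF (log2 0.38, 0.06 to 0.71, adjusted p = 0.666) and ND-B14.7 (log2 -0.46, -0.91 to -0.01, adjusted p = 0.722). Genes called in 1 genotype and not in the other, such as Cyt-c1, COX5B or ATPsynC, were thus not shown to differ between genotypes.

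Other genes of mitochondrial energy metabolism were counted from lists of general knowledge. Of 5 measured subunits whose symbols do not follow the naming used here, 1 was lower in the WT, 1 in the mutant and 3 in the average, with median log2 differences of -0.37, -0.18 and -0.27. These were blw, the ATP synthase alpha subunit (log2 -0.52, SE 0.0807, adjusted p = 0.000977 in the WT, and log2 -0.39, adjusted p = 0.00806 in the mutant), and in the average also sun, the ATP synthase epsilon subunit (log2 -0.42), and cype, a cytochrome c oxidase subunit (log2 -0.27). Of 9 tricarboxylic acid cycle genes 3, 4 and 5 were lower in the WT, the mutant and the average (median log2 -0.18, -0.43 and -0.29). Among them were the mitochondrial aconitase mAcon1 (log2 -0.72 and -0.57) and the isocitrate dehydrogenase subunit Idh3g (log2 -0.59 and -0.75). Of 9 genes of mitochondrial carriers and biogenesis 1, 2 and 3 were lower (median log2 -0.06, -0.28 and -0.13), with mtSSB, the single-stranded DNA binding protein of mitochondria, called in both genotypes (log2 -0.65 and -0.68).

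Of 8 measured genes of glycolysis, which acts outside the mitochondrion, 1 was lower in the WT, 3 in the mutant and 6 in the average, with median log2 differences of -0.27, -0.54 and -0.39. All of these list counts stand beside 4.92%, 5.2% and 9.89% of all features called lower, and 17.8%, 19.4% and 29.6% of the features with high signals, and with 5 to 9 genes a list the shares are coarse. The phosphoglycerate mutase Pglym78 was lower in both genotypes (log2 -0.79, adjusted p = 0.00271, and log2 -0.63, adjusted p = 0.0129), and the phosphoglycerate kinase Pgk in the mutant (log2 -0.61, adjusted p = 0.0174). None of the measured genes in these 4 lists was called higher in migratory cells, and 0 were called by limma between genotypes in either fraction. At an unadjusted p below 0.05 were 3 tricarboxylic acid cycle and 2 glycolytic genes between migratory cells and 1 glycolytic gene between nonmigratory cells.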

How the data were processed

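RNA from 4 groups of 3 ovary samples was measured on one-colour arrays, 1 array per sample. The deposited intensity values are 1 signal per probe set, made by the authors with MAS5 per the submitters' processing notes (version not given in the sources used here). The signals are on a linear scale, already summarised and scaled. The number of arrays limits the precision.

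Each signal was raised by 7.5 (5% of the trimmed mean) and log2 transformed, so fold changes of dim genes are understated. Of 14010 probe sets, 12442 carried 1 gene name, 327 several and 1197 none. Each gene kept the probe set with the highest mean, unnamed probe sets were kept, and 8978 of 12367 features passed the filter (above the 40th percentile in at least 3 arrays). A linear model of 4 group means left 8 residual degrees of freedom and was fitted with limma 3.58.1 (R 4.3.3), its variance prior following mean signal. The 6 contrasts were adjusted by Benjamini-Hochberg over all features and called at an adjusted p below 0.05. The procedure was tested on simulated data with known changes and independent noise for each feature. Those data held no effects shared across an array and no link of the GAPDH ratio to the fraction. Tables and plots used Python 3.11.15, pandas 2.3.3 and matplotlib 3.10.9. Arrays are named biological repeats in the labels; what each repeat pooled is not stated.

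Genes were named by rule: in each comparison and complex up to 3 called genes with the lowest p, or those with the lowest unadjusted p where none was called, all of complex II, every called gene of complex III, the gene with the highest signal in each complex, genes of role lists called in the average, genes that failed the filter, and genes whose probe sets disagree in sign. The genes, role lists and pathway lists were chosen with earlier results of these data known. Alternatives covered the filter, the constant, quantile normalization, median centring, the variance trend, array weights, probe set averaging, fits of 2 groups, a replicate block, the GAPDH ratio as a covariate and each array left out.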

Additional observations from a re-analysis of the deposited data

Results flagged for a closer look

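Probe sets annotated to more than 1 gene were not used above, and 3 of the 4 that list a gene of oxidative phosphorylation gave signals above the absent controls on 12 of 12 arrays. The probe set shared by ATPsynG and beat-Vb had a mean signal of 3255.9 over the arrays, with group means of 2992 in WT migratory, 3492 in WT nonmigratory, 2839 in mutant migratory and 3700.3 in mutant nonmigratory cells. Its migratory minus nonmigratory log2 difference was -0.24 in the WT (adjusted p = 0.319) and -0.38 in the mutant (adjusted p = 0.0835). The probe set shared by COX6B and CG18809 had a mean signal of 3875.1 and log2 differences of -0.44 (adjusted p = 0.12) and -0.52 (adjusted p = 0.0642). The probe set shared by ND-13B and CG33493 had a mean signal of 235.4 and log2 differences of 0.02 (adjusted p = 0.979) and 0.03 (adjusted p = 0.963). None of the 3 was called, and their signal cannot be assigned to 1 gene.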

How the results depend on the processing

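Directions of the called fraction differences held under the settings run, while counts of called genes moved. All genes called lower between fractions kept a negative log2 value under every setting run. None of these settings used the dimmer probe set of ATPsynC alone, which gave 0.21 in the WT, 0.12 in the mutant and 0.17 in the average. In the WT the count of 20 was 6 with median centring, 2 without the variance trend, 7 with only the WT arrays and 0 with the GAPDH ratio as a covariate, and 6 to 27 with 1 array left out. In the mutant the count of 26 was 4 without the variance trend, 1 (SdhB) with the GAPDH covariate and 6 to 32 with 1 array left out. The average of 40 went to 0 with the GAPDH covariate and was 35 to 43 with 1 array left out, and 26 of the 40 were called under all 22 settings other than that covariate. With the covariate 4, 168 and 36 of all 8978 features were called in the WT, the mutant and the average. Between mutant and WT migratory cells the count was 1 without the filter (COX7AL) and 0 with any array left out. Between nonmigratory cells the count of 1 was 0 with median centring, without the variance trend and with the GAPDH covariate, and 0 to 1 with 1 array left out. The uncalled genotype difference of UQCR-14 in migratory cells turned to -0.001 without mutant migratory replicate 3 (-0.001 to 0.222 over arrays left out), and the uncalled interaction of SdhB to 0.029 without mutant migratory replicate 2 (-0.316 to 0.029). Over the named genes 1730 values kept their direction and side of the threshold, 178 lost the call and 21 gained it. The cause of these shifts was not tested. Same-numbered arrays did not deviate together (correlations of -0.057 to 0.079 over 18 pairs), and with a replicate block 21, 25 and 41 genes were lower in the WT, the mutant and the average, 0 and 1 were called between genotypes and 0 in the interaction. Signal over background limits ND-B8 and most paralogs.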

Other observations

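The genes lower in the average over genotypes lay on all chromosome arms that carried genes of the set: 8 of 13 tested genes on 2L, 5 of 10 on 2R, 7 of 12 on 3L, 11 of 14 on 3R, 8 of 10 on X and 1 of 1 on chromosome 4. Over all arms 9.89% of all features were called lower in the average. The share of all features on each arm is not given here, so these counts show location only.

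Genes called in 1 genotype only were 6 in the WT (ND-B14.5A, ND-B16.6, ND-PDSW, SdhD, COX5B and ATPsyndelta) and 12 in the mutant (ND-13A, ND-18, ND-20, ND-39, ND-B14.7, ND-B17, ND-B18, Cyt-c1, COX5A, COX8, ATPsynbeta and ATPsynC). In none of these 18 was the interaction called.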
